A study of Mus musculus with 6 samples.

Results

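The brush border of the small intestine carries membrane-bound enzymes that finish the digestion of sugars and peptides at the surface of the enterocyte. A set of 9 of them, chosen by gene symbol, was followed here in villus epithelium of the mouse duodenum: *Sis*, *Lct*, *Mgam*, *Treh*, *Anpep*, *Dpp4*, *Enpep*, *Alpi* and *Mep1a*. All 9 had a row among the 20409 features counted, and all 9 passed the filter on low counts that left 13346 genes for testing. The lowest count of any of them in any mouse was 1794, so counting error was small beside the spread between mice.

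RNA-seq libraries of polyadenylated RNA came from 3 double mutant and 3 wild-type mice, 2 females and 1 male in each group, with 1 library per mouse. The double mutant mice carried *Smad4* fl/fl and *Ctnnb* exon3 fl/wt alleles with Villin-CreERT2, a tamoxifen-inducible Cre that acts throughout the intestinal epithelium, on a C57BL6-enriched background. They received tamoxifen at 0.05 g/kg on 4 days, and villi were collected at 7 days after induction. This removes Smad4, the shared effector of TGF-β and BMP signalling, and deletes the exon of β-catenin that marks the protein for degradation. The wild-type mice were littermates without tamoxifen, so an effect of the drug and an effect of the alleles cannot be told apart. The study states that replicates were matched for age, and the ages are not given in the sources used here.

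The libraries held 19678507 to 26337318 counts. *Smad4* itself had 148 ± 30.4 CPM (mean ± SD of 3 wild-type mice) against 31.7 ± 5.40 CPM in the double mutants, without overlap, where CPM is a count divided by the library size after TMM scaling. *Ctnnb1* had 932 ± 53.6 and 841 ± 79.7 CPM, and counts per gene do not separate transcripts with and without the deleted exon. The libraries carried epithelial markers, with the pan-epithelial genes summing to 6909 to 8035 CPM in every mouse. These genes do not separate villus from crypt. The only male of the wild-type group was mouse 1, so fits without this mouse hold no wild-type male. It stood apart from the other wild-type mice. Its 8 goblet cell markers summed to 125 CPM, against 11616 and 11039 CPM for mice 2 and 3 of that group, and its 7 Paneth cell markers summed to 7.91 CPM, against 954 and 1592 CPM. For *Enpep*, whose call changed without this mouse, both values are given, and likewise for *Mep1a*.

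Sugar digestion at the brush border ends with disaccharidases, which free glucose, galactose and fructose for the transporters in the same membrane. Peptide digestion ends with aminopeptidases, dipeptidyl peptidases and metalloproteases, which hand amino acids and small peptides to their own carriers. Intestinal alkaline phosphatase sits beside them and removes phosphate from nucleotides and bacterial lipopolysaccharide. These genes are switched on as enterocytes leave the crypt and are textbook markers of a mature villus.

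In double mutant villi, 7 of the 9 hydrolases were lower (edgeR's quasi-likelihood test, adjusted p under 0.05 over all genes tested), and none passed in the other direction. Over all genes tested, 17.0% were lower and 19.7% higher by the same rule. The median log2 fold change was -0.94 for the 9 genes and 0.02 for all genes. The fall was graded, from 4.12-fold for lactase to 1.45-fold for glutamyl aminopeptidase. *Mep1a* and *Alpi* did not pass the test. For 8 of the 9 genes the values of the double mutants were all below those of the wild-type mice, a pattern that 24.2% of all genes shared, and for 0 of the 9 they were all above, against 28.1% of all genes. Without wild-type mouse 1, 6 of the 9 were lower, beside 17.1% of all genes. Only *Lct* also passed the fold threshold of the study's methods, a log2 fold change of at least 2 in size, which 2.26% of all genes passed on the lower side. It did so narrowly, at -2.04, and fell short without wild-type mouse 1 (-1.98), without double mutant mouse 2 (-1.79) and with library size alone (-1.85). Together the 9 genes took 2.77%, 3.14% and 2.47% of all counts in the wild-type mice and 1.71%, 1.43% and 1.64% in the double mutant mice.

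**Figure D1:**
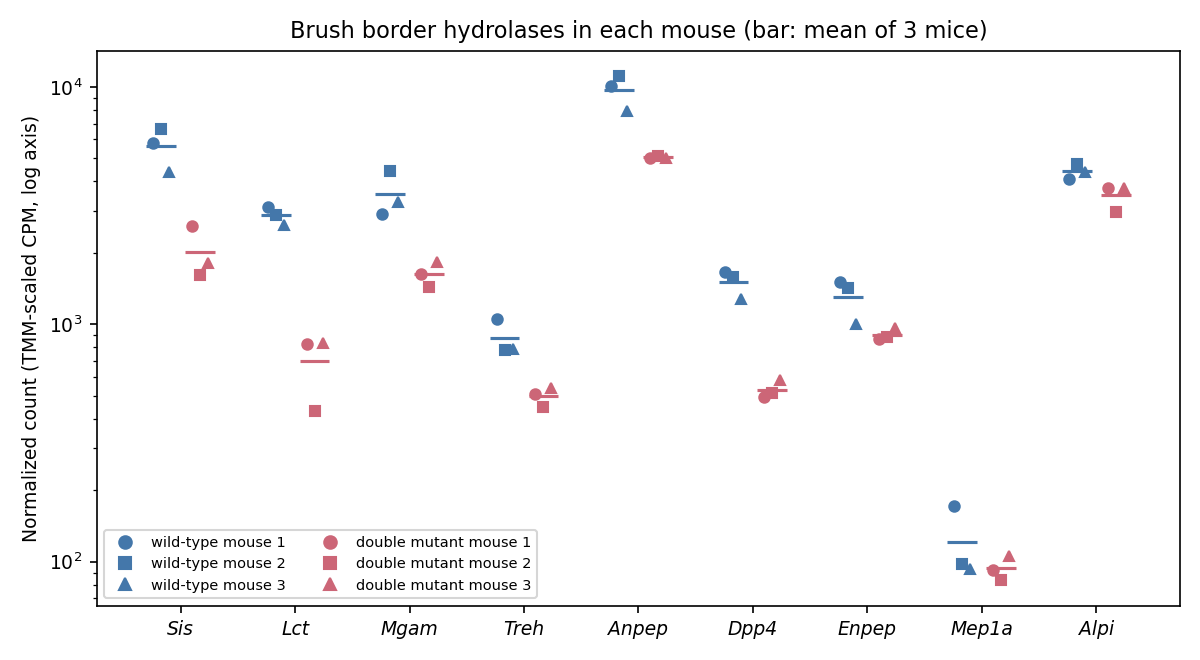
Normalized count (TMM-scaled CPM, log axis) of the 9 hydrolases in each of the 6 mice, wild-type in blue and double mutant in red, with a bar at the mean of 3 mice and 1 symbol per mouse number. The groups are apart for 8 genes and overlap for *Mep1a*, where wild-type mouse 1 lies at 171 CPM and the other wild-type mice at 97.6 and 92.8 CPM.

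Lactase showed the largest fall. *Lct* (ENSMUSG00000026354; mm9 chromosome 1, 130181333 to 130224895, minus strand, 17 exons in its longest transcript) splits lactose into glucose and galactose. The wild-type mice had 3104, 2896 and 2621 CPM and the double mutant mice 828, 432 and 830 CPM. The groups were far apart, and double mutant mouse 2 was the lowest of all 6 mice. On the log2 scale the difference was -2.04 (standard error 0.247, adjusted p = 0.000704, edgeR).

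Sucrase-isomaltase, which splits sucrose and the branch points of starch, was lower as well. *Sis* (ENSMUSG00000027790; chromosome 3, 72692479 to 72771785, minus strand, 48 exons) had 5807, 6648 and 4367 CPM in wild-type mice and 2600, 1611 and 1812 CPM in double mutant mice. No double mutant mouse reached the lowest wild-type value, that of mouse 3. edgeR gave -1.48 as the log2 fold change (standard error 0.221, adjusted p = 0.00160).

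The log2 fold changes of the other glucosidases were smaller in size. *Mgam* (ENSMUSG00000068587; chromosome 6, 40578830 to 40719122, plus strand, 48 exons), the maltase-glucoamylase that releases glucose from the ends of starch fragments, had 2901, 4404 and 3270 CPM in wild-type mice and 1621, 1434 and 1821 CPM in the double mutants. Its log2 fold change was -1.12 (standard error 0.178, adjusted p = 0.00202, edgeR), and the groups did not overlap. *Treh* (ENSMUSG00000032098; chromosome 9, 44481316 to 44494388, plus strand, 15 exons), the trehalase that cuts the fungal and insect sugar trehalose, had 1050, 780 and 790 CPM in wild-type mice and 509, 448 and 538 CPM in the double mutants. The double mutant mice lay below every wild-type mouse, and wild-type mouse 1 was the highest. Trehalase moved by -0.81 in log2 units (standard error 0.149, adjusted p = 0.00381, edgeR).

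All 4 disaccharidase genes were thus lower, with a median log2 fold change of -1.30. Their summed normalized count ranged from 11048 to 14727 CPM in wild-type mice and from 3925 to 5557 CPM in double mutant mice. *Sis* and *Mgam* are paralogs, but their coding sequences are 66.2% identical and share 0 windows of 50 bases, so reads of the 2 genes can be told apart.

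The bases before the start of *Lct* and of *Sis*, the pair of disaccharidases with the largest falls, are shown here for reference. Both are RefSeq promoter sequences of build GRCm38.p6, matched without mismatch to mm9, and they cover the 250 bases before the transcription start, 5′ to 3′ on the strand of the gene. *Lct* is at chr1:130224896-130225145 and *Sis* at chr3:72771786-72772035, both on the minus strand. Capitals mark matches on either strand to short motifs of factors known to act on enterocyte genes. The letters searched for CDX factors were TTTATNG, and for factors of the GATA family AGATAA was used. The HNF4 motif was taken as CAAAGTC. For TCF factors, which bind with β-catenin, it was ATCAAAG.
Lct: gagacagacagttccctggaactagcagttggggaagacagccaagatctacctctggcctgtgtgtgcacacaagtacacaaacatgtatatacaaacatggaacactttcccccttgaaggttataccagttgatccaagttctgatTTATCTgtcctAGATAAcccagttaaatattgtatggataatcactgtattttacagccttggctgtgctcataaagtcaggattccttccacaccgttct
Sis: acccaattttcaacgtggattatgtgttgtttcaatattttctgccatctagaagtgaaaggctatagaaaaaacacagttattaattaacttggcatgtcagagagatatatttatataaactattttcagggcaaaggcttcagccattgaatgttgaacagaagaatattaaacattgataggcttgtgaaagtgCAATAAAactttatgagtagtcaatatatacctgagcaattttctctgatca
The *Lct* window held 2 GATA matches, whose first bases lie at -101 and -90 from the start. The *Sis* window held 1 CDX match at -52. Motifs were counted in windows that also hold 50 bases after the start. Among the 9 genes, 3 windows held the GATA motif, 4 the CDX motif, 2 the HNF4 motif and 1 the TCF motif. Among all 32851 windows of this length in the RefSeq table, the shares were 11.2%, 10.9%, 4.44% and 3.73%. A match of a few letters is a description of the sequence and not a binding site.

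The peptidases divided into 3 that were lower and 1 that did not pass. *Dpp4* (ENSMUSG00000035000; chromosome 2, 62168130 to 62250288, minus strand, 26 exons) encodes dipeptidyl peptidase 4, which clips dipeptides after proline and inactivates incretin hormones. The wild-type mice had 1661, 1580 and 1273 CPM and the double mutant mice 492, 513 and 582 CPM. The double mutant values lay close together, below all wild-type values. In log2 units the change was -1.51 (standard error 0.141, adjusted p = 0.000219, edgeR), the smallest adjusted p among the 9 genes.

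*Dpp4* is also made by T cells, and villus epithelium holds intraepithelial lymphocytes. The 8 lymphocyte markers summed to 79.9 to 150 CPM in wild-type mice and 64.3 to 106 CPM in the double mutants. Of the 7 markers tested, 2 were lower, *Ptprc* and *Cd8a*, and 5 of 7 were lower without wild-type mouse 1. No lymphocyte marker was at 0 in all mice. Their part in the fall of *Dpp4* was not tested.

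The 250 bases before the *Dpp4* start (chr2:62250289-62250538 of mm9, minus strand, RefSeq GRCm38.p6 sequence) are given as those of the peptidase with the largest fall, with the same capitals. They hold 1 CDX match at -228 and 1 GATA match at -32.
Dpp4: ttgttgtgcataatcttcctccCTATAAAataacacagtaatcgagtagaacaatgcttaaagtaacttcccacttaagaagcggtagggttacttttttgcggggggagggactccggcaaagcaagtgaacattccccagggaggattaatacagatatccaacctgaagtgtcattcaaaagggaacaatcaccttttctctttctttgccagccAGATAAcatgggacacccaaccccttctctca

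Aminopeptidase N was the most abundant of the 9 transcripts in wild-type villi. *Anpep* (ENSMUSG00000039062; chromosome 7, 86966689 to 86993096, minus strand, 21 exons) removes neutral residues from the amino end of peptides. It had 10123, 11105 and 7884 CPM in wild-type mice and 5029, 5131 and 5019 CPM in double mutant mice. The double mutant mice were nearly equal, and each was below every wild-type mouse. The log2 fold change was -0.94 (standard error 0.149, adjusted p = 0.00201, edgeR).

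*Enpep* (ENSMUSG00000028024; chromosome 3, 128972093 to 129035638, minus strand, 20 exons), the glutamyl aminopeptidase that removes acidic residues and also acts on angiotensin, showed a smaller difference. The values were 1503, 1418 and 1001 CPM in wild-type mice and 865, 884 and 964 CPM in the double mutants. Wild-type mouse 3 lay just above the highest double mutant mouse. edgeR put the log2 fold change at -0.53 (standard error 0.162, adjusted p = 0.0321). This call was lost when any mouse other than wild-type mouse 3 was left out, with adjusted p up to 0.0991 (edgeR). Without wild-type mouse 1 the log2 fold change was -0.42 (adjusted p = 0.0601, edgeR). The call was also lost when libraries were scaled by size alone (log2 fold change -0.33, adjusted p = 0.111, edgeR). With the replicate numbers as a block it was lost too (log2 fold change -0.51, adjusted p = 0.0793, edgeR).

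*Mep1a* (ENSMUSG00000023914; chromosome 17, 43611273 to 43639761, minus strand, 14 exons) encodes the α subunit of meprin, a metalloprotease that cuts larger peptides and proteins. The wild-type mice had 171, 97.6 and 92.8 CPM and the double mutant mice 92.6, 83.3 and 106 CPM. The groups overlapped, and the wild-type mean rested on mouse 1. Its log2 fold change was -0.36 with a 95% interval of -0.91 to 0.19 (adjusted p = 0.271, edgeR). Without wild-type mouse 1 it was -0.02 (adjusted p = 0.932, edgeR). The gene of the β subunit, *Mep1b*, averaged 1684 ± 171 CPM in wild-type mice and 1244 ± 48.0 CPM in the double mutants (edgeR, log2 fold change -0.44 and adjusted p = 0.0221). It passed in only 2 of the 6 fits with a mouse removed, and not with library size alone or with the replicate numbers as a block.

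Intestinal alkaline phosphatase, like *Mep1a*, did not pass the test. *Alpi* (ENSMUSG00000079440; chromosome 1, 88994579 to 88998181, minus strand, 11 exons) had 4093, 4736 and 4393 CPM in wild-type mice and 3747, 2967 and 3753 CPM in double mutant mice. The groups did not overlap, but the gap between them, from 3753 to 4093 CPM, was narrower than the SD of the double mutants (452 CPM). The log2 fold change was -0.34 with a 95% interval of -0.65 to -0.02 (unadjusted), and the adjusted p of 0.0869 (edgeR) missed the threshold. DESeq2's Wald test gave -0.36 with an adjusted p of 0.0428, so the call of *Alpi* depended on the tool. DESeq2 called 8 of the 9 genes lower, and 15.2% of its 16436 genes.

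Mice have another intestinal alkaline phosphatase, *Akp3*, beside *Alpi* on chromosome 1 (89021583 to 89024487, plus strand). It had 3232, 4535 and 3057 CPM in wild-type mice and 3124, 1534 and 3409 CPM in the double mutants, which overlapped (log2 fold change -0.42, standard error 0.303, adjusted p = 0.310, edgeR). The coding sequences of *Alpi* and *Akp3* are 81.8% identical, and 35 of the 2286 windows of 50 bases in the *Alpi* transcript also occur in *Akp3*. How reads that match both were counted is not stated in the sources used here, so a small part of either count is uncertain. The embryonic paralog *Alppl2* was near the bottom of the range, at 2.18 ± 0.431 and 2.28 ± 1.19 CPM (adjusted p = 0.913, edgeR).

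The 250 bases before the *Alpi* start (chr1:88998182-88998431 of mm9, minus strand, RefSeq GRCm38.p6 sequence) are shown as those of the phosphatase, which did not pass the test although it was among the most abundant of the 9 transcripts. They hold 1 CDX match at -33 and 1 HNF4 match at -19.
Alpi: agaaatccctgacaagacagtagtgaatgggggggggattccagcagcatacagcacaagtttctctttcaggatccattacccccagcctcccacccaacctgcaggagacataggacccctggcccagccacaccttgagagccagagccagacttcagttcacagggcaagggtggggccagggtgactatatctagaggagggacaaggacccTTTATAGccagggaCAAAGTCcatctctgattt

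The order of the genes by mean level differed between the groups. Levels of different genes are compared here as CPM per kb of exon in the mm9 annotation. In wild-type villi the order was *Anpep* (2502 ± 426 CPM per kb, SD, n = 3), *Alpi* (1887 ± 138), *Sis* (871 ± 179), *Mgam* (542 ± 120), *Lct* (449 ± 37.8), *Treh* (426 ± 74.8), *Enpep* (278 ± 57.1), *Dpp4* (238 ± 32.4) and *Mep1a* (34.9 ± 12.8). The neighbours *Mgam* and *Lct*, *Lct* and *Treh*, and *Enpep* and *Dpp4* overlapped between mice, though *Enpep* was above *Dpp4* within each wild-type mouse. In double mutant villi *Alpi* (1494 ± 194 CPM per kb) and *Anpep* (1304 ± 16.1) headed the list and overlapped. *Sis* (312 ± 81.1), *Mgam* (250 ± 29.8) and *Treh* (243 ± 22.4) followed and overlapped between mice, though each double mutant mouse had them in this order. *Enpep* (192 ± 11.2) stood above *Lct* (109 ± 35.8) and *Dpp4* (83.7 ± 7.43) in every double mutant mouse, and *Mep1a* (27.2 ± 3.32) was last. *Lct* stood above *Enpep* in each wild-type mouse and below it in each double mutant mouse.

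**Figure D2:**
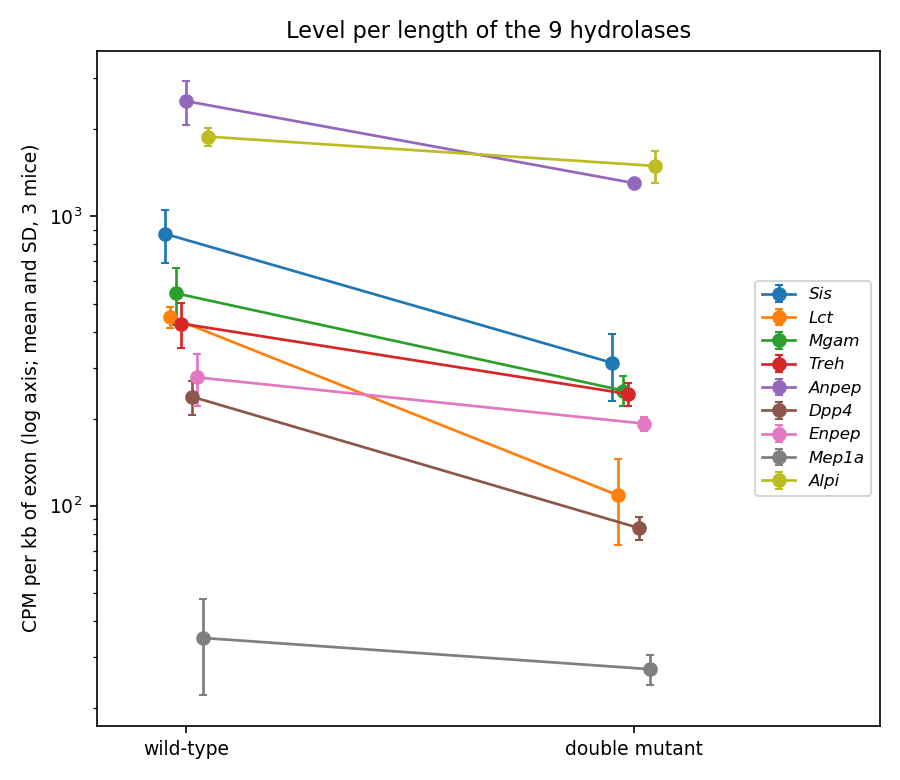
Level per length (CPM per kb of exon, log axis) of the 9 hydrolases, mean and SD of 3 mice in each group, with a line joining the groups for each gene. *Lct* drops from 449 to 109 CPM per kb and passes below *Treh* and *Enpep*, while *Alpi*, at 1494 CPM per kb, meets *Anpep* at 1304.

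As a share of the summed CPM per kb of the 9 genes, *Alpi* took 23.9% to 29.7% in wild-type mice and 34.9% to 38.4% in double mutant mice. *Lct* took 5.64% to 6.60% in wild-type and 1.85% to 3.10% in double mutant mice. *Anpep* took 32.1% to 35.7% and 30.7% to 36.3%, which overlapped. Shares of a sum are tied to each other, and a gene that falls less than the rest gains share without rising.

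**Figure D3:**
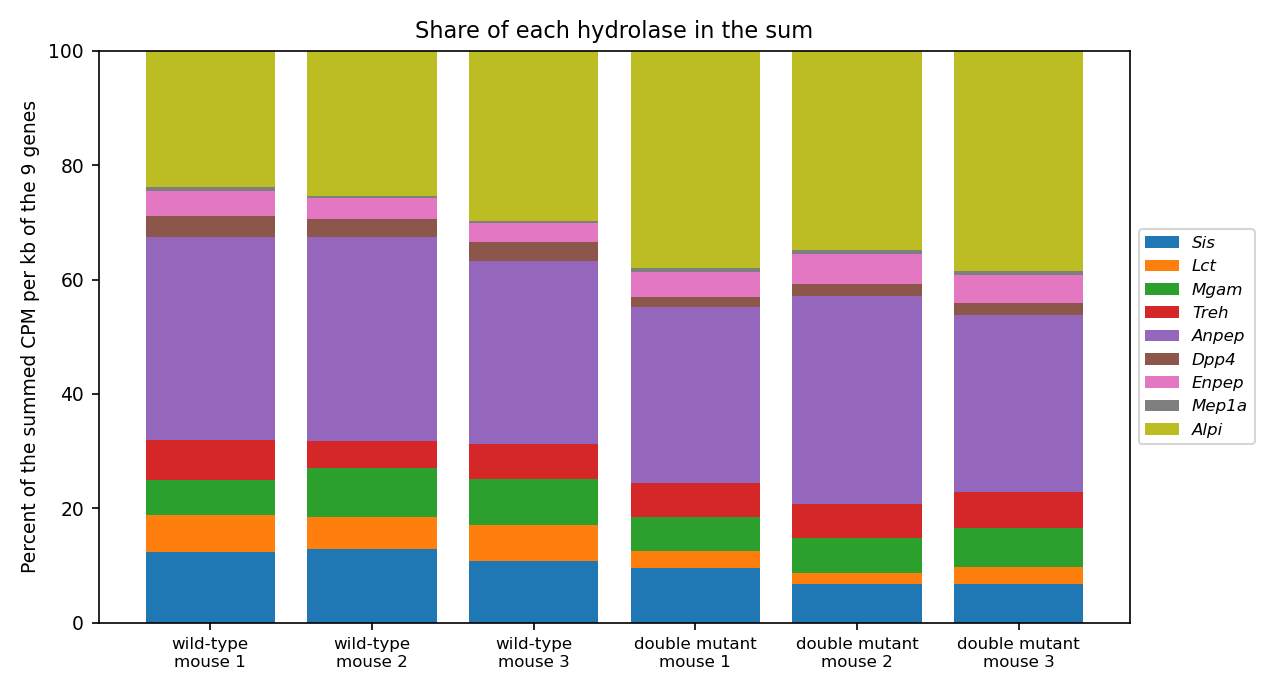
Percent of the summed CPM per kb of the 9 hydrolases taken by each gene, 1 stacked bar per mouse. *Alpi* takes a larger share in each double mutant mouse (at least 34.9%) than in any wild-type mouse (at most 29.7%), and *Lct* a smaller one.

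Ratios of a pair of genes within a mouse do not depend on how libraries are scaled, and 6 were compared. The log2 ratio of *Anpep* to *Dpp4* was 2.61, 2.81 and 2.63 in wild-type and 3.35, 3.32 and 3.11 in double mutant mice. The log2 ratio of *Sis* to *Treh* was 2.47, 3.09 and 2.47 in wild-type and 2.35, 1.85 and 1.75 in double mutant mice. Neither ratio overlapped between the groups, and an exact two-sided permutation test gave p = 0.1 for both, the lowest value possible with 3 mice in each group (adjusted p = 0.3 over the 6 ratios). The ratio of *Lct* to *Sis* was lower by 0.61 on the log2 scale with overlap between mice (exact permutation test, p = 0.2, adjusted p = 0.4). The differences for *Sis* over *Mgam* (-0.39), *Alpi* over *Akp3* (0.14) and *Mep1a* over *Mep1b* (0.12) were within the spread between mice (exact permutation p of 0.3, 0.8 and 0.9, with adjusted p of 0.45 for the first and 0.9 for the others). These differences moved with single mice. *Sis* over *Mgam* was at -0.225 without wild-type mouse 1 and -0.59 without double mutant mouse 1. *Mep1a* over *Mep1b* was at 0.49 without wild-type mouse 1 and -0.08 without wild-type mouse 3. *Alpi* over *Akp3* was at -0.11 without double mutant mouse 2.

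The mice of a group were also ranked for each gene, without the same count over all genes. Wild-type mouse 3 had the lowest value of its group for 6 of the 9 genes and the highest for 0. Wild-type mouse 1 was the highest for 5 genes and wild-type mouse 2 for 4. Double mutant mouse 2 was the lowest of its group for 6 genes, and double mutant mouse 3 the highest for 7.

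The other digestive enzymes of the digestion pathway, listed by function, were compared by the same test. Of 10 further brush border peptidases, 9 had a row and were tested, and 7 were lower and 0 higher, with a median log2 fold change of -1.09. They ran from -2.04 for *Mme*, the endopeptidase neprilysin, to -0.41 for *Ggt1*, a γ-glutamyltransferase. *Tmprss15*, the enteropeptidase that activates trypsin (-0.94), and *Xpnpep2* (-0.85) did not pass (adjusted p = 0.154 and 0.0782, edgeR). Without wild-type mouse 1 the count was again 7 of 9, but *Tmprss15* passed (-1.24, adjusted p = 0.0485) and *Ggt1* did not (-0.34, adjusted p = 0.0578, edgeR). With library size alone 5 of the 9 were lower, as with the replicate block, and 5 to 7 with a mouse left out. *Mme*, *Ggt1*, *Tmprss15* and *Xpnpep2* were named after their values were seen.

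Of 8 other brush border hydrolases, 7 had a row and 6 were tested, of which 3 were lower and 0 higher. *Enpp7*, the alkaline sphingomyelinase of the gut, averaged 428 ± 174 CPM in wild-type mice and 14.5 ± 5.79 CPM in the double mutants (log2 fold change -4.88, standard error 0.442, adjusted p = 0.000578, edgeR). *Enpp3*, a nucleotide phosphodiesterase, had 1529 ± 13.9 and 158 ± 36.8 CPM (log2 fold change -3.27, standard error 0.185, adjusted p = 2.51e-05, edgeR). *Asah2*, the neutral ceramidase that acts after sphingomyelinase, had 1411 ± 363 and 281 ± 62.7 CPM (log2 fold change -2.33, standard error 0.241, adjusted p = 0.000374, edgeR). These 3 lipid and nucleotide hydrolases had log2 fold changes larger in size than any of the 9 genes. The remaining genes tested, *Akp3*, *Alppl2* and *Vnn1*, did not pass.

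The cytosolic peptidases, which cut small peptides after uptake, moved less. Of 8 tested, 4 were lower (*Pepd*, *Cndp2*, *Lap3* and *Xpnpep1*) and 0 higher, with a median log2 fold change of -0.33. With library size alone, 2 of the 8 were lower and 2 higher, so the direction of this list depended on the scaling.

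**Figure D4:**
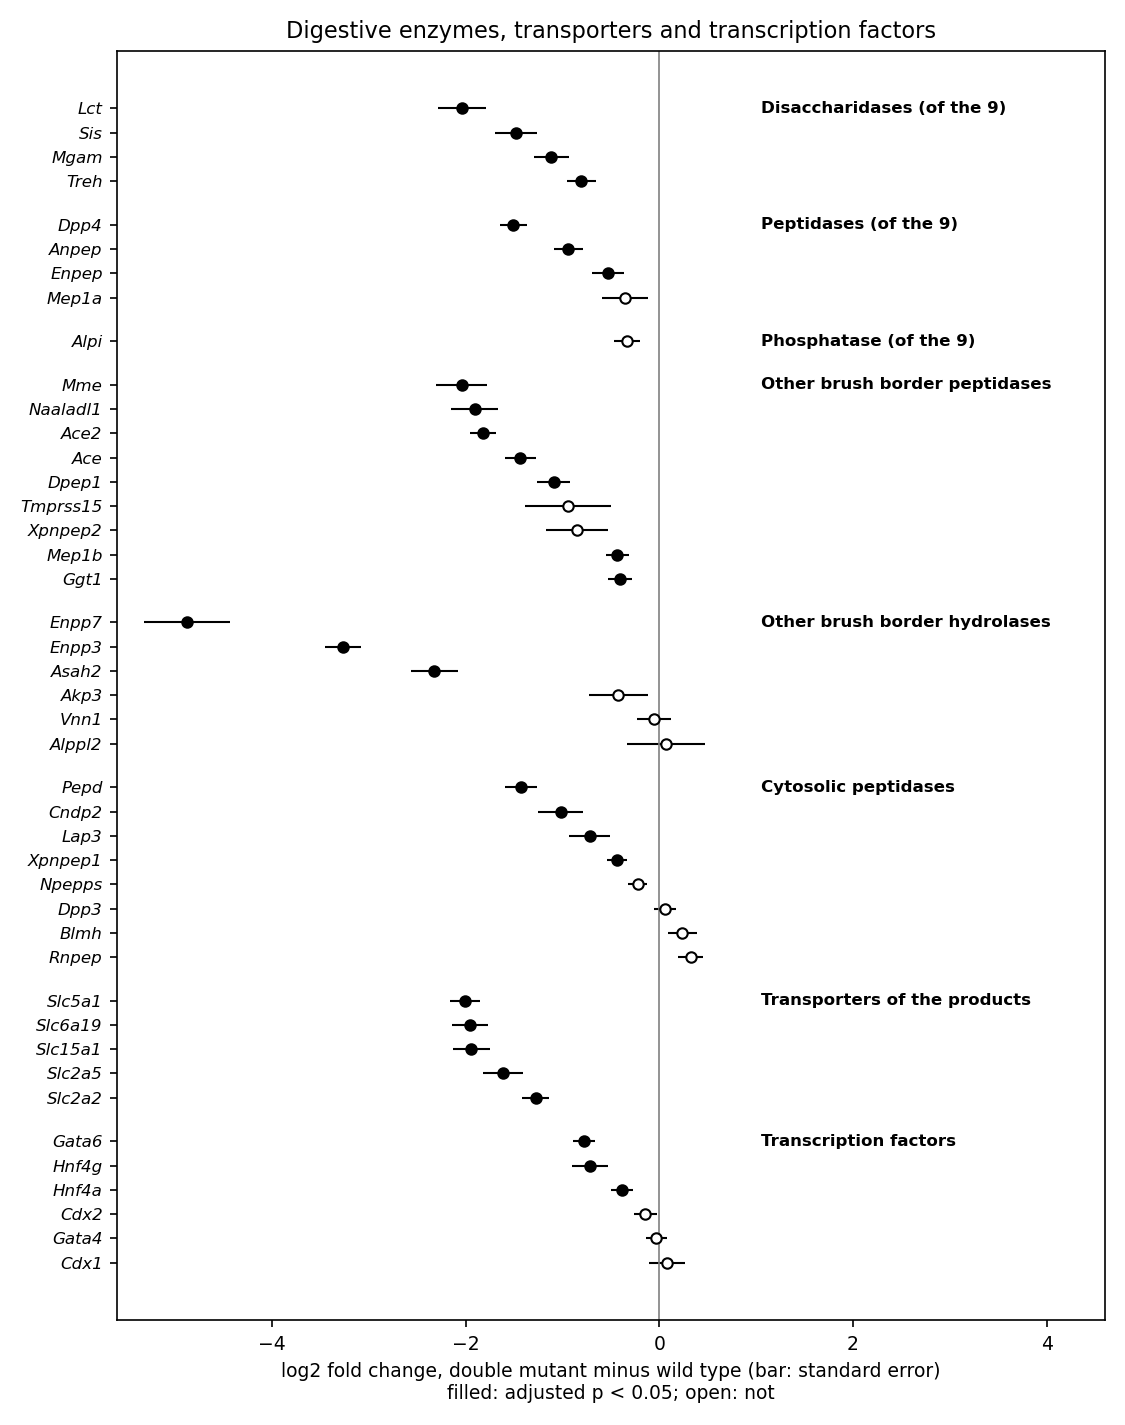
log2 fold change (double mutant minus wild type, edgeR, bars are standard errors) of the 9 hydrolases and of the other digestive enzymes, transporters and transcription factors of the lists, sorted within each list, filled where the adjusted p was under 0.05. The 5 transporters sit between -2.01 and -1.28, and the 6 transcription factors between -0.78 and 0.08.

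The carriers of the digestion products were all lower, 5 of 5. *Slc5a1*, the sodium-coupled glucose and galactose carrier of the brush border, averaged 6717 ± 808 CPM in wild-type mice and 1669 ± 254 CPM in the double mutants (edgeR, log2 fold change -2.01 and adjusted p = 0.000114). *Slc15a1*, the carrier of di- and tripeptides, had a log2 fold change of -1.94 (edgeR, adjusted p = 0.000258) and *Slc6a19*, the carrier of neutral amino acids, one of -1.96 (adjusted p = 0.000250, edgeR). *Slc2a5* for fructose changed by -1.61 (adjusted p = 0.000841) and *Slc2a2*, the basolateral sugar carrier, by -1.28 (adjusted p = 0.000411, edgeR).

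Of 6 transcription factors known to act on enterocyte genes, 3 were lower and 0 higher. In log2 fold change, *Gata6* moved by -0.78 (adjusted p = 0.00146), *Hnf4g* by -0.72 (adjusted p = 0.0175) and *Hnf4a* by -0.39 (adjusted p = 0.0256, edgeR). *Hnf4a* passed in 2 of the 6 fits without a mouse and did not pass with library size alone or with the replicate block. The call of *Hnf4g* was also lost with library size alone (adjusted p = 0.0546, edgeR). *Cdx2* (log2 fold change -0.15), *Cdx1* (0.08) and *Gata4* (-0.03) did not pass. The signs of *Cdx2* and *Gata4* turned with library size alone.

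Lactase belongs to the suckling stage and sucrase and trehalase to the adult stage of the mouse intestine. Of the 4 genes of the suckling list, *Lct* and *Prdm1*, a repressor active before weaning, were lower (*Prdm1* log2 fold change -1.32, adjusted p = 0.00579, edgeR). *Ass1*, an enzyme of arginine synthesis (1.29, adjusted p = 0.0567), and *Fcgrt*, the Fc receptor of the neonatal gut (0.48, adjusted p = 0.136, edgeR), did not pass, and *Ass1* reached at most 2.09 CPM in any mouse. In the suckling list, 1 gene passed as higher with library size alone, with sex as a covariate and without wild-type mouse 3. Both genes of the adult list, *Sis* and *Treh*, were lower, with the values given above.

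In bulk tissue, fewer mature enterocytes and less hydrolase RNA per enterocyte cannot be told apart. Of 8 other enterocyte markers, 5 were lower and 1, *Fabp1*, higher, and they summed to 34568 to 45821 CPM in wild-type mice and 24536 to 31473 CPM in the double mutants. Without wild-type mouse 1, 5 were lower and 2 higher. The 8 stem cell markers summed to 44.3 CPM in wild-type mouse 1, to 142 and 152 CPM in the other wild-type mice and to 226 to 293 CPM in the double mutants, with 2 markers higher, or 4 without wild-type mouse 1. Stromal markers summed to at most 5.12 CPM in any mouse, myeloid markers to at most 12.6 CPM (0 of 3 tested lower, 1 of 3 without wild-type mouse 1) and vessel markers to at most 2.25 CPM. Scaled to 6 pan-epithelial genes, of which *Krt19* was higher and *Cldn7* lower by edgeR's test, 7 of the 9 hydrolases were still lower beside 16.4% of all genes, with a median log2 fold change of -0.9975. Scaled by library size alone, 6 of the 9 were lower beside 10.7% of all genes, the median of all genes was 0.22, and calls over all genes were 1425 lower and 3732 higher, against 2273 and 2632 with TMM scaling. The part of any cell type in the fall of the hydrolases was not tested.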

How the data were processed

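Per the labels and the study's methods, the authors used HISAT2 to align 150 bp paired-end reads to mm9 and featureCounts to count reads per gene. They deposited the raw counts, 1 column per mouse, without normalization or pooling. Strand setting and multi-mapping rule are not given in the sources used here. The study's methods set a lower limit on RNA integrity but give no value per mouse. The part of RNA quality in the falls was not tested. Of 20073 Ensembl identifiers, 20032 were found in the mm9 GENCODE annotation, which gave symbols, positions and exon lengths. Another 336 rows were numbered transcripts.

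Genes were kept by filterByExpr, scaled by TMM and tested with glmQLFit (robust) and glmQLFTest in edgeR 4.0.16 (R 4.3.3), with Benjamini-Hochberg adjustment over 13346 genes. CPM uses the TMM-scaled library sizes. Standard errors were taken from the F statistic, as log2 fold change over its root. Ratios had 1 count added to both genes. Alternatives were DESeq2 1.42.0, limma-voom (limma 3.58.1), RLE factors, library size alone, scaling to 6 pan-epithelial genes, looser and stricter count filters, sex or the replicate number as a further term, a log2 fold change of 2, and each mouse left out in turn. The edgeR test was first tested on simulated data.

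The 9 genes, the gene lists and the tests were chosen with earlier results of these data known. Text names all 9 genes, their paralogs, the 5 transporters, 6 transcription factors, and the 3 largest falls among other listed enzymes with 50 or more counts in all mice of the higher group, other genes being named after their values were seen. No listed enzyme, transporter or transcription factor rose past the test. Some listed items are not reported here, and protein sequences were not used. With 1 library per mouse, p-values measure the spread between mice.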

Additional observations from a re-analysis of the deposited data

How the results depend on the processing

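Of the 9 hydrolases, *Lct*, *Sis*, *Dpp4*, *Mgam*, *Anpep* and *Treh* were lower, with adjusted p under 0.05, in each of 9 other fits and in each of 6 fits with a mouse removed, and *Mep1a* passed in none of these 15. Mice with the same replicate number were of the same sex. Their deviations from the group means correlated with r = 0.0224, -0.109 and 0.0123 over the genes tested. These values cannot show whether the mice were paired by design. With the replicate block the log2 fold change of *Enpep* was -0.51 (adjusted p = 0.0793, edgeR), the count of lower hydrolases was 6, beside 1750 of 13346 genes, and no other call among the 9 genes changed. With library size alone *Enpep* was at -0.33, and DESeq2 put *Alpi* at -0.36 and past the threshold. With a mouse left out, *Enpep* ran from -0.70 to -0.42, and 6 or 7 hydrolases were lower, beside 1630 to 2361 genes in all. With a log2 fold change of at least 2, 1 hydrolase, 1 other brush border peptidase, 1 transporter, 1 suckling-stage gene, 0 adult-stage genes, 0 cytosolic peptidases and 0 transcription factors were lower, as were 302 genes in all, with 406 higher. With library size alone, 2 cytosolic peptidases were lower and 2 higher, 1 transcription factor was lower, 1 suckling-stage gene was higher and 1425 genes were lower. With sex as a covariate 1 suckling-stage gene was higher. With a mouse left out, 2 to 4 cytosolic peptidases were lower and 0 or 1 suckling-stage genes higher.

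Of the genes followed through every alternative, those below turned sign, and none of them passed in either direction. *Alppl2* was at -0.019 with limma-voom and -0.025 with the replicate block, and ran from -0.45 to 0.27 with a mouse left out. *Cdx1* ran from -0.10 to 0.20 and *Gata4* from -0.11 to 0.031 with a mouse left out. With library size alone *Cdx2* was at 0.045, *Gata4* at 0.16 and *Ctnnb1* at 0.046. Without the 33 genes that were among the 20 highest of any mouse, 4 of the hydrolases included, the remaining 5 made up 0.749% (wild-type) and 0.356% (double mutant) of what was left. Per kb of the longest transcript, *Dpp4* had 286 CPM in wild-type mice and 100.4 in the double mutants, and in the latter *Anpep* had 1333, *Enpep* 216 and *Mep1a* 31.7 CPM per kb. Depth gave at least 1794 counts for each of the 9 genes in each mouse.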

Other observations

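Markers of the region of the intestine were also followed. *Cybrd1*, the duodenal ferric reductase, rose by 3.05 on the log2 scale (edgeR, adjusted p = 0.00787), while *Slc40a1* (0.56) and *Onecut2* (0.19) did not pass. The 3 ileal markers summed to 14.8 to 32.5 CPM in wild-type mice and 10.9 to 17.5 CPM in the double mutants, and neither of the 2 tested passed. Genes of acinar enzymes of the pancreas summed to at most 0.928 CPM in any mouse over the 5 genes with a row, and haemoglobin and *Alas2* to at most 0.751 CPM. All 7 tested tuft markers and 6 of 8 enteroendocrine markers were lower, or 7 of 8 for the latter without wild-type mouse 1. With all mice, 0 of 7 Paneth markers passed (0 also at an unadjusted p under 0.05), and of 8 goblet markers 1 was higher, *Clca1*. These counts rest on wild-type mouse 1. Without it, an alternative chosen after seeing the data, 2 Paneth markers were lower and 2 higher, and 5 goblet markers were lower and 1 higher (edgeR). *Ang4*, an antimicrobial ribonuclease of Paneth cells, had 1.58 CPM in wild-type mouse 1, 371 and 533 CPM in the other wild-type mice and 7.36 to 12.7 CPM in the double mutants. Its log2 fold change was -4.84 with all mice (adjusted p = 0.123) and -5.43 without wild-type mouse 1 (adjusted p = 6.88e-06, edgeR).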
